A study of Mus musculus with 2 samples.

Results

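Non-cycling metastatic cells were examined in lungs of female FVB/NJ mice that received Met-1 mouse mammary carcinoma cells by tail vein injection at 10 weeks of age. Met-1 is a cell line derived from the MMTV-PyMT mammary tumor model, in which polyomavirus middle T antigen is driven in the mammary gland. Dissociated whole lungs were profiled by droplet-based single-cell RNA sequencing, with 1 mouse and 1 library at week 1 after injection (low metastatic burden) and 1 mouse and 1 library at week 3 (high metastatic burden). Both libraries carry the same batch label, and no uninjected lung was analysed here.

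The cells were chosen by their own counts in the high-burden library. Levels per cell are given as p10k, the unique molecular identifiers (UMIs) of a gene per 10000 UMIs of that cell. A member had 1000 to 7000 detected genes and at most 10% mitochondrial UMIs. The summed level of 5 metastatic genes (Cdkn2a, Sox9, Twist1, Hmga2 and Fosl1) was 6 p10k or more. C1qa, C1qb and C1qc, which mark macrophages, summed to under 10 p10k, and the endothelial genes Cldn5 and Cdh5 to under 3 p10k. The summed level of 6 cell cycle genes (Birc5, Ube2c, Top2a, Mki67, Ccnb1 and Cdc20) was under 2 p10k. This gave 222 cells of 3033 kept high-burden cells (7.32%, 95% Clopper-Pearson interval 6.42 to 8.30) and of 5506 kept cells in both libraries. They made up 15.8% (13.9 to 17.8) of the 1408 cells that passed the metastatic gate, and the other 1186 of these, at 2 p10k or more of the cycle genes, are called cycling metastatic cells. A further 1568 high-burden cells had under 6 p10k of the metastatic genes and are called other lung cells. The remaining 57 cells were high in metastatic genes but were excluded by the macrophage or endothelial limits.

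A dividing cell makes the transcripts of DNA replication in S phase and those of chromosome segregation in G2 and M phase, and a cell that has left the cycle or sits in G1 makes few of either. Many late cycle genes are held down in resting cells through a short promoter element, the cell cycle genes homology region (CHR, letters TTTGAA), often beside CCAAT boxes. Disseminated carcinoma cells that do not divide are of interest in breast cancer because they can persist in a distant organ and resume growth later.

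Promoters of 4 genes that stood among the lowest in the non-cycling cells, and of Spp1, the secreted phosphoprotein osteopontin, are shown so that these elements can be seen in place. Each runs 5′ to 3′ from 250 bases before to 50 bases after the gene's start (RefSeq, GRCm38.p6, first entry per symbol), and capitals mark TTTGAA and CCAAT on either strand, so that TTCAAA and ATTGG are capitalised too.
Cenpf, chr1:189688037-189688336, minus strand: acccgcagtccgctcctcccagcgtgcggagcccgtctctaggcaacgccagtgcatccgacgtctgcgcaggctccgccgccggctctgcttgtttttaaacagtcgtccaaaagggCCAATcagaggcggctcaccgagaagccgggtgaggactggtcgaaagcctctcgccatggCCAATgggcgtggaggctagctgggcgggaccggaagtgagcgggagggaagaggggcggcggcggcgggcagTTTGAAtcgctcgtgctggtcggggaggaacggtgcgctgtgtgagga
Hmmr, chr11:40733388-40733687, minus strand: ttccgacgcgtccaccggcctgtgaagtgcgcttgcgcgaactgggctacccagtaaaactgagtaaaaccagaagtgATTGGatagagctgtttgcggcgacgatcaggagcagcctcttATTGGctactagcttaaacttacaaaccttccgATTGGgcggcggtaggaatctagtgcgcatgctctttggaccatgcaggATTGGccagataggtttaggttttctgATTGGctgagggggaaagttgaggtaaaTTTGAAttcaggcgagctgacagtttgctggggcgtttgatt
Aspm, chr1:139454523-139454822, plus strand: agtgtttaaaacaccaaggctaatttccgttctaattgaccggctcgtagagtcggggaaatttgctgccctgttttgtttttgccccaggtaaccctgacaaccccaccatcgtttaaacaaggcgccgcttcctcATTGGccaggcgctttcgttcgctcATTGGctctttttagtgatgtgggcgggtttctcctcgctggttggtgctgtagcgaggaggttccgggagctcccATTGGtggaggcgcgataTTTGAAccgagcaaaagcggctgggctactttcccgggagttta
Fbxo5, chr10:5805416-5805715, minus strand: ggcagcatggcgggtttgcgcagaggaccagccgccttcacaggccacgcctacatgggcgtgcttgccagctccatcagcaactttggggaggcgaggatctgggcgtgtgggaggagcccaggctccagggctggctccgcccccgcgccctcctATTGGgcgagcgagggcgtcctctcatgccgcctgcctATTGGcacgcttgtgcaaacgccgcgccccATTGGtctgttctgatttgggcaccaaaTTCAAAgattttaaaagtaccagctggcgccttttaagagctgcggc
Spp1, chr5:104434861-104435160, plus strand: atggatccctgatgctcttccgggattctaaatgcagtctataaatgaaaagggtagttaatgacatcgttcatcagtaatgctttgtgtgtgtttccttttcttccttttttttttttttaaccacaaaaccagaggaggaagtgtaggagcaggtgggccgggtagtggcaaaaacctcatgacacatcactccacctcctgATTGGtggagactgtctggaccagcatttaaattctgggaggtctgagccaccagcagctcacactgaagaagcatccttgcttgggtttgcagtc
Cenpf, a kinetochore protein gene, and Hmmr, the hyaluronan-mediated motility receptor gene whose product also binds the spindle, each held 1 TTTGAA match close to the start. Aspm, a spindle pole gene, and Fbxo5, an inhibitor of the anaphase-promoting complex, each held 1 as well. The Spp1 window held no TTTGAA match and 1 CCAAT match. These are matches of letters and not measured binding sites. All 4 printed windows of low genes held TTTGAA, but not all of the lowest genes did. The windows of Nek2, Cenpe and Nusap1, also among the lowest, held no TTTGAA match and are not printed. The window of Ndc80, likewise among the lowest and not printed, held 1. The printed windows therefore do not show how often low genes hold the match, and shares are given below.

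The members were shallower than the cycling metastatic cells. Their UMI totals ran from 5252 to 55390 with a median of 16175.5, against a median of 23194.5 in cycling metastatic cells and 9408.5 in other lung cells. Median genes detected were 3731, 4592 and 2680 in this order, and after thinning each cell to 3000 UMIs they were 1305.5, 1334 and 1262, with no cell left out. The median mitochondrial share was 4.04% in the members, 3.40% in cycling metastatic cells and 2.82% in other lung cells. A doublet caller marked 7 of 3033 cells (0.231%), too few for it to have worked, and marked 0 of the members. Libraries shared 11 cell barcodes.

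The limit on the cycle genes lay inside a continuous range, so the members are a range of the metastatic cells and not a separate type. The cycle gene sum of the members had a median of 1.38 p10k (10th to 90th percentile 0.54 to 1.87), and 19 members had 0 UMIs of all 6 genes. Of the 222 members, 91 lay between 1.5 and 2 p10k, and 90 cycling metastatic cells lay just above, between 2 and 2.5 p10k. Few cells lay near the limit on the metastatic genes. Their sum had a median of 15.3 p10k (lowest 6.34, highest 36.1), and 7 members lay between 6 and 8 p10k. Just outside, 37 cells that passed the other limits had 4 to 6 p10k. For comparison, the metastatic gene sum had a median of 13.7 p10k in cycling metastatic cells and 1.12 p10k in other lung cells, where the 90th percentile was 3.04 p10k.

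**Figure D1:**
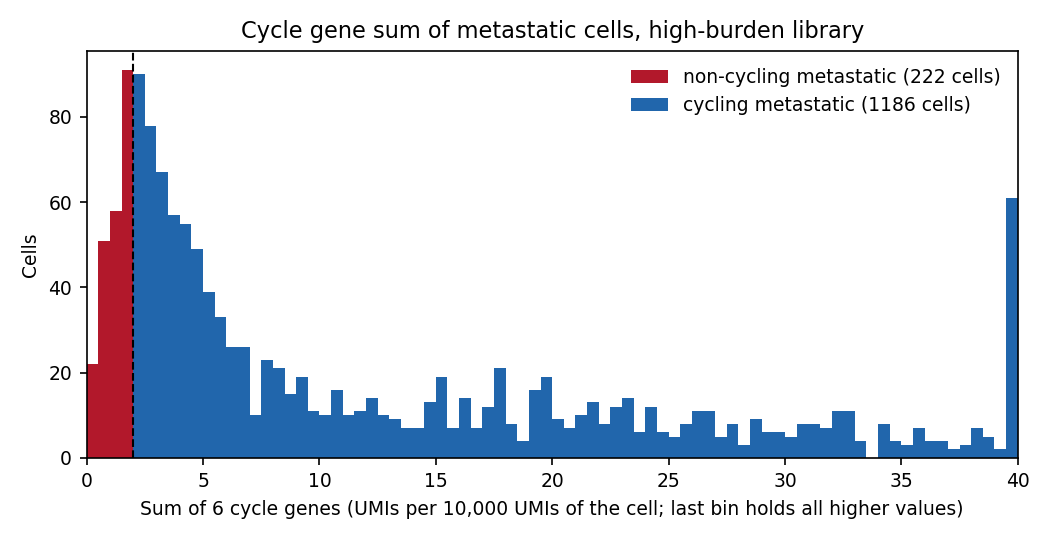
Number of metastatic cells (vertical axis) by the summed level of the 6 cycle genes in UMIs per 10,000 UMIs of the cell (horizontal axis, bins of 0.5, the last bin holding all higher values). Red bars are the 222 non-cycling and blue bars the 1186 cycling metastatic cells, and the dashed line is the limit of 2, which crosses the highest part of the distribution and not a trough.

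At low burden, 2 of 2473 cells passed the same gate (0.0809%, interval 0.0098 to 0.292), and 0 passed it with the cycle genes at 2 p10k or more. With 3 counts taken as the upper limit for 0, this allows a share of up to about 0.121%. That bound is approximate and is not a Clopper-Pearson limit. The first of the 2 had 7 Cdkn2a UMIs among 5453 and no UMI of Sox9, Twist1, Hmga2, Fosl1, Lcn2 or Spp1. It held 91 UMIs of Dcn and 13 of Col1a1, which are fibroblast genes, 72 of Mgp and 9 of Xist. The second had 2613 UMIs, of which 2 were Cdkn2a, 2 the leukocyte gene Ptprc and 4 Xist. Neither carried a second metastatic gene, so all values that follow come from the high-burden library. Week, burden, depth and mouse differ together between the libraries and cannot be told apart. With 1 library per group no test was possible, and the intervals below cover counting error only.

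To check the label, the 7 markers fixed for these cells were read beside other cell classes of the library. Macrophages (830 cells) had 10 p10k or more of the C1q genes, fibroblasts (83 cells) 20 p10k or more of Dcn, Pdgfra and Col3a1, and lymphocytes (65 cells) 5 p10k or more of Cd3 and Cd79 genes. All 3 classes are part of the other lung cells. Group levels are CPM, the UMIs of a gene per 1000000 summed UMIs of a group. All 7 markers were higher in the members than in other lung cells. The choice of cells used 3 of the 7, and their levels describe the choice. Cdkn2a (chr4:89274471-89294653), which encodes the cyclin-dependent kinase inhibitor p16 and the p53 activator p19Arf, stood at 833 CPM in the members, 656 in cycling metastatic cells and 67.5 in other lung cells. Sox9, a transcription factor of progenitor cells, stood at 384, 295 and 29.2 CPM in the same order. Twist1, a transcription factor of mesenchymal transition, stood at 193, 179 and 13.4 CPM. The other 2 genes of the gate were lower in the members than in cycling cells. Hmga2, a chromatin protein of embryonic and tumor cells, stood at 142 against 168 CPM, and Fosl1, a subunit of the AP-1 transcription factor, at 53.9 against 119 CPM. Among cells of 10000 to 20000 UMIs the log2 ratio of members to cycling cells was 0.02 for Hmga2 and −0.64 for Fosl1.

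The remaining 4 markers took no part in the choice. Spp1 (chr5:104435118-104441050) stood at 14664 CPM in the members, 6523 in cycling metastatic cells, 1614 in macrophages, 657 in fibroblasts and 650 in lymphocytes. Mgp (chr6:136872435-136875823), matrix Gla protein and an inhibitor of calcification, stood at 16300.3, 6986, 1050.4, 12597 and 1680.3 CPM in the same order, so that fibroblasts came close to the members and the other classes did not. Lcn2 (chr2:32384633-32388252), lipocalin 2, which binds iron-carrying siderophores, stood at 2320 CPM in the members and 1470 in cycling metastatic cells, against 145 to 197 in the 3 other classes. Ptx3 (chr3:66219910-66225805), the soluble pattern-recognition protein pentraxin 3, stood at 154 and 97.4 CPM, against 3.86 to 9.13 in the 3 other classes.

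Levels per cell overlapped widely between the groups. Spp1 ran from 4.05 to 1158 p10k over the members, with a median of 93.3, against a median of 33.8 in cycling metastatic cells and 5.99 in lymphocytes. Mgp ran from 2.70 to 1205 p10k with a median of 83.0, against 33.3 and 8.30. Lcn2 ran from 0 to 316 p10k with a median of 9.03, against 4.78 and 1.42. Thus every member carried Spp1 and Mgp UMIs, but lymphocytes did too, and shares of cells with a UMI say little for these genes. After thinning to 3000 UMIs, Ptx3 was seen in 31.1% of members, 20.5% of cycling metastatic cells and 0% of lymphocytes, whose median depth before thinning was 6877 UMIs. Sox9 was seen in 59.0%, 56.8% and 7.69%, and Cdkn2a in 87.4%, 81.3% and 21.5%. The lymphocyte shares were taken as the background from free RNA, but they may include mixed droplets, since doublets were kept. The surfactant gene Sftpc, for example, reached 986 p10k in a lymphocyte, against a median of 6.55 p10k in that class.

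**Figure D2:**
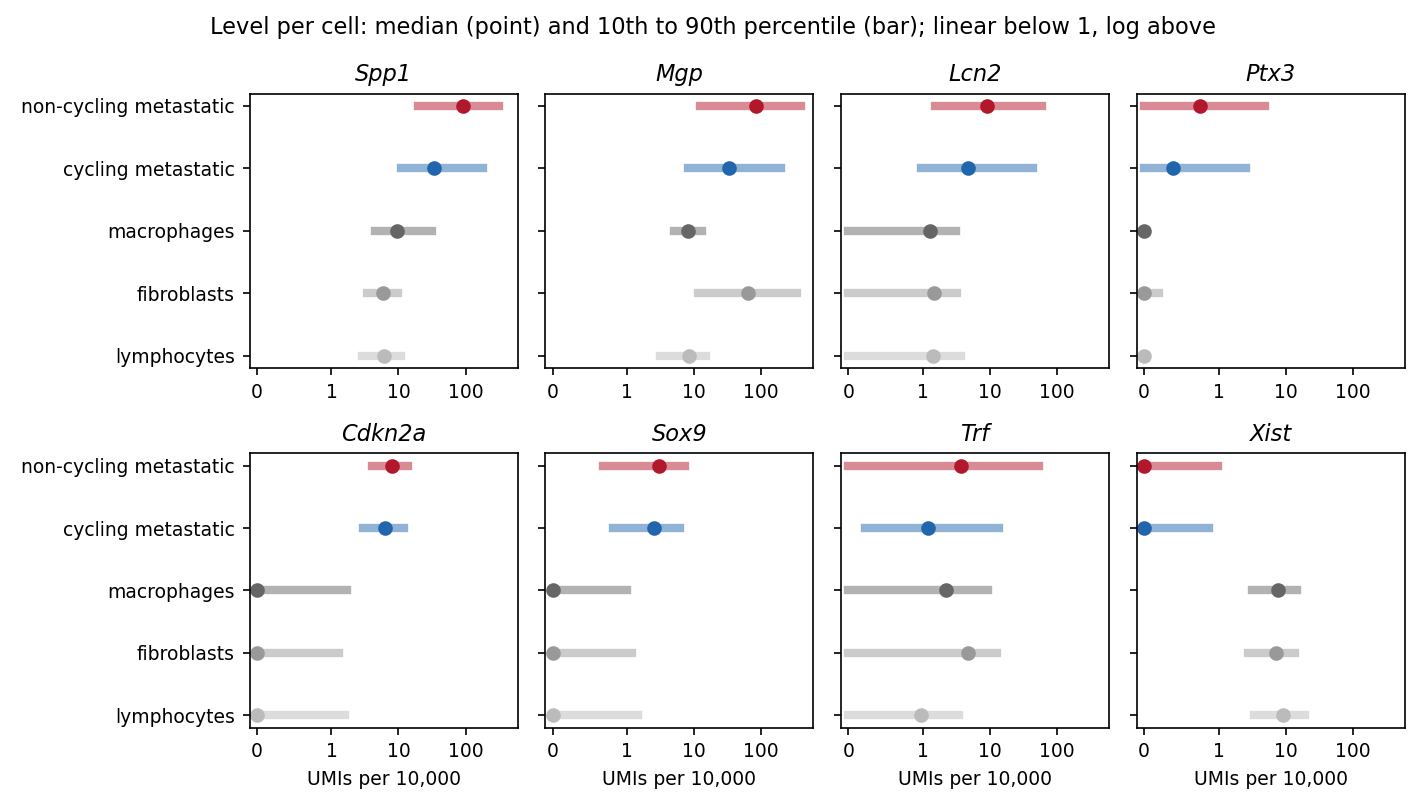
Level per cell in UMIs per 10,000 (horizontal axis, linear below 1 and log above) of 8 genes in 5 cell classes of the high-burden library, with the median as a point and the 10th to 90th percentile as a bar. Medians of Spp1, Mgp and Lcn2 are highest in the non-cycling metastatic cells, with ranges that overlap the cycling ones, and Xist has a median of 0 in both metastatic groups only.

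Xist, the RNA expressed from the inactive X chromosome of female cells, separated the metastatic cells from the host and was not used to choose them. It stood at 34.2 CPM in the members and 31.8 in cycling metastatic cells, against 802 in other lung cells, 859 in macrophages, 753 in fibroblasts and 955 in lymphocytes. At 3000 UMIs it was seen in 9.46% of members and 89.2% of lymphocytes. The PYMT transgene did not separate them, at 69.9 CPM in the members, 64.0 in cycling metastatic cells, 59.9 in macrophages and 69.5 in lymphocytes. Ccnd1, cyclin D1, stood at 704, 769, 206 and 61.7 CPM in these classes.

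Epithelial genes were nearly absent, so the word carcinoma rests on the origin of the injected line. Epcam was at 2.25 CPM in the members (9 UMIs) and 30.9 in lymphocytes, Krt8 at 2.496 and 5.79, and the E-cadherin gene Cdh1 at 0.75 (3 UMIs) and 5.79, and these 3 genes were chosen after their values were seen. Krt18, a keratin, was an exception at 89.3 CPM against 19.3 in lymphocytes, as was Gata3, a mammary luminal transcription factor, at 102 CPM against 13.5 in other lung cells. Vim, the mesenchymal intermediate filament vimentin, stood at 3364 CPM in the members, 3291 in cycling metastatic cells and 1377 in other lung cells. The mesenchymal cadherin gene Cdh2 stood at 43.4, 40.8 and 5.87 CPM. Snai1, a repressor of epithelial genes, stood at 80.4, 63.8 and 14.04 CPM. The mesenchymal list as a whole was mixed against other lung cells. Of its 16 genes tested, 10 were higher and 6 lower, 7 and 5 of them over 2-fold, with a median log2 ratio of 0.25. Over all genes tested in that comparison 52.2% were higher.

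Markers of other cell types were low. None of the 8 macrophage, 4 pan-leukocyte, 7 lymphocyte, 4 neutrophil, 5 endothelial, 6 lung epithelial, 3 mesothelial or 2 erythroid markers was higher in the members than in other lung cells. Of 6 fibroblast markers 1 was higher, Pdgfra, and of 4 mural markers 1 was higher, Pdgfrb, both receptors for platelet-derived growth factor. The mural marker Rgs5 was at 0. Summed macrophage markers stood at 716 CPM in the members and 750 in cycling metastatic cells, against 25950 in macrophages. Summed lung epithelial markers stood at 2235 and 2041 CPM, fibroblast markers at 131 and 86.4, and neutrophil markers at 253 and 223. The erythroid markers summed to 351 CPM in the members and 868 in cycling metastatic cells. Their levels in most cells were alike, since the median of the hemoglobin gene Hba-a1 was 1.21 p10k in both groups, while its highest level was 16.4 p10k in a member and 1130 p10k in a cycling metastatic cell.

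The members were next set against the cycling metastatic cells of the same lung, to ask what else differed when the cycle genes were low. The gate used this contrast, so its values are a description. Of 8827 genes with at least 200 UMIs over both groups and detection in at least 10% of either, 429 (4.86%) differed by over 2-fold. They were 80 higher (0.906%) and 349 lower (3.95%) in the members, and the median log2 ratio over all 8827 genes was −0.02. Log2 ratios are non-cycling over cycling throughout. By any amount, 48.2% of all genes tested were higher and 51.8% lower, and these shares stand beside the count of every list below. Among cells of 10000 to 20000 UMIs (138 members and 410 cycling metastatic cells, with medians of 14344 and 16280.5 UMIs), 55 of 4776 genes differed by over 2-fold, 10 higher and 45 lower, so that depth and the contrast moved together. This range of depth was chosen after the data had been seen, and it is called the matched depth range below. Depth in it was closer between the groups but not equal. The 6 gate cycle genes had a median log2 ratio of −2.73 in this range, against −3.77 over all cells. The contrast in cycling was therefore smaller there too, and smaller ratios in this range do not come from depth held equal alone. The median log2 ratio over all genes tested in it was −0.04.

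Cycle genes outside the gate were lower without exception. All 31 genes of the G2 and M phase list were over 2-fold lower, with a median log2 ratio of −2.88, against 51.8% of all genes tested that were lower by any amount. All 28 genes of the S phase list were lower, 25 of them over 2-fold, with a median of −1.62. The median was −1.77 and −1.38 in the matched depth range, again with all genes of both lists lower. Hmmr had 10 UMIs in the members (2.496 CPM) and 1346 in cycling metastatic cells (46.0 CPM), a log2 ratio of −4.20 (interval −5.27 to −3.32). Cenpf stood at 6.49 against 119.5 CPM, a log2 ratio of −4.20 (−4.82 to −3.65). Cenpe, a kinetochore motor, stood at 6.49 against 94.5 CPM, a log2 ratio of −3.86 (−4.48 to −3.31). Rrm2, the ribonucleotide reductase subunit that makes deoxynucleotides in S phase, stood at 17.2 against 122 CPM. Pcna, the sliding clamp of DNA polymerase, stood at 44.9 against 105 CPM.

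The other lowest genes outside the gate also act in mitosis or replication. Shcbp1, a midbody protein gene, had 2 UMIs in the members against 374, a log2 ratio of −4.68 (−7.73 to −2.81). The centrosome kinase gene Nek2 had 3 UMIs against 413, at −4.24 (−6.52 to −2.68). Ndc80, an outer kinetochore gene, and Dscc1, which helps load cohesin and the replication clamp, had 3 UMIs each in the members against 350 and 278. Dlgap5 and Aspm, of the spindle, had 4 UMIs each against 465 and 368. Nusap1, Fbxo5 and Pbk, a mitotic kinase gene, had log2 ratios of −3.62, −3.60 and −3.58. In the matched depth range Dlgap5 stood at −2.12, Cenpe at −2.22, Fbxo5 at −1.86 and Pbk at −1.93.

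The promoters of the lower genes held the letters TTTGAA more often than promoters in general. Of the 342 lower genes outside the gate, 260 had a promoter sequence, and 93 of these (35.8%) held TTTGAA on either strand, against 766 of the 6838 tested genes with a promoter (11.2%) and 2 of 55 higher genes (3.64%). Of the 12 lowest genes 8 had a promoter, and 5 of the 8 held it, among them the 4 printed above. CCAAT was held by 58.5% of lower, 41.8% of higher and 38.8% of all tested promoters. GGCGGGAA, an E2F element, was held by 11.5%, 5.45% and 4.65%. GGGCGG, an Sp1 element whose letters overlap the start of GGCGGGAA when a G comes first, was held by 70.8%, 49.1% and 69.0%. TGACTCA, the AP-1 element, was held by 2.31%, 5.45% and 3.28%. The E-box CACGTG was held by 6.54%, 18.2% and 10.9%. No test was made of these shares.

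G1 regulators showed no common direction. Of 18 genes 16 passed the filter, 6 higher (48.2% of all genes tested were higher) and 10 lower, with a median log2 ratio of −0.15. Ccnd1 was at −0.13 (−0.19 to −0.07) and its kinase partner Cdk4 at −0.29 (−0.37 to −0.22), at 704 and 404 CPM in the members. The 6 higher genes were Cdkn2b, Cdkn2c, Cdkn1a, Ccnd2, Rb1 and Myc. Ccnd2, another D-type cyclin, stood at 61.6 against 40.4 CPM, a log2 ratio of 0.61 (0.41 to 0.81) and of 0.11 in the matched depth range. Among inhibitors of cyclin-dependent kinases, Cdkn2b, p15, stood at 103 against 65.4 CPM, a log2 ratio of 0.66 (0.50 to 0.81), and Cdkn2c, p18, at 205 against 154 CPM, a ratio of 0.41 (0.30 to 0.51). Cdkn1a, p21, stood at 98.8 against 75.5 CPM, and both groups were below the 324 CPM of other lung cells. Cdkn2b was at 0.11 in the matched depth range, and Cdkn2c at 0.17. Cdkn2d, p19, was lower, at 28.2 against 54.1 CPM. The only G1 regulator over 2-fold higher was the retinoblastoma gene Rb1, at 22.0 against 10.5 CPM (88 UMIs in the members), which falls outside the naming rule and was chosen after its values were seen. Among p53 targets 7 of 13 were higher and 6 lower. Btg2, an antiproliferative gene, was the only one over 2-fold higher, at 371 against 158 CPM, a log2 ratio of 1.23 (1.15 to 1.32) and of 0.53 in the matched depth range.

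Nucleolar genes and MYC targets, which serve ribosome production and growth, were lower together. All 15 that passed the filter were lower, 4 of them over 2-fold, with a median log2 ratio of −0.79. Srm, spermidine synthase, stood at 71.9 against 170 CPM, a log2 ratio of −1.24 (−1.42 to −1.07). Ncl, nucleolin, stood at 284 against 562 CPM, and the ribosomal RNA methylation factors Nop56 and Nop58 at 65.6 against 133 and 57.4 against 117 CPM. Npm1, nucleophosmin, stood at 1025 against 1398 CPM. In the matched depth range 14 of 15 were lower, with a median of −0.42. Myc itself was alike, at 19.5 against 18.6 CPM, and was chosen after its values were seen.

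Immediate early genes were higher together. All 16 genes of the AP-1 and immediate early list were higher, 1 of them over 2-fold, with a median log2 ratio of 0.73, and all 16 were higher in the matched depth range, with a median of 0.34. Junb, Fos and Jun, subunits of AP-1, stood at 1694 against 904, 1538 against 881 and 713 against 491 CPM. Dusp1, a phosphatase that ends MAP kinase signaling, stood at 1027 against 540 CPM, and Nr4a1, an orphan nuclear receptor, at 455 against 251 CPM. The AP-1 subunit Fosl1, a gate gene, went the other way, as given above. The gene over 2-fold higher was Egr2, an early growth response factor, at 31.9 against 13.1 CPM, which was named after its values were seen. Feedback genes of EGFR and MAPK signaling were mixed, with 10 of 14 higher and a median of 0.37, which was 0.10 in the matched depth range. Dusp6, which dephosphorylates ERK, stood at 211 against 99.6 CPM, a log2 ratio of 1.08 (0.97 to 1.19), and Spry1, a receptor tyrosine kinase inhibitor, at 71.9 against 37.1 CPM. In the matched depth range these 2 genes stood at 0.72 and 0.49. The mitochondrial share was also higher in the members, and its part in these differences was not tested.

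Antigen presentation and interferon genes were also higher. All 11 MHC class I presentation genes that passed the filter were higher, with a median of 0.47, and 10 of 11 were higher in the matched depth range, with a median of 0.24. B2m, the class I light chain, stood at 2350 against 1496 CPM, the class I heavy chain genes H2-D1 at 2155 against 1418 and H2-K1 at 993 against 716 CPM. The nonclassical H2-T23 was over 2-fold higher, at 113 against 52.3 CPM. All of these were below other lung cells, where B2m stood at 3745 and H2-T23 at 173 CPM. All 13 interferon response genes that passed the filter were higher, with a median of 0.49, and 10 of 13 were higher in the matched depth range. The interferon-induced GTPase genes Iigp1 and Gbp2 stood at 236 against 124 and 251 against 137 CPM, and the ubiquitin-like modifier Isg15 at 269 against 187 CPM.

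**Figure D3:**
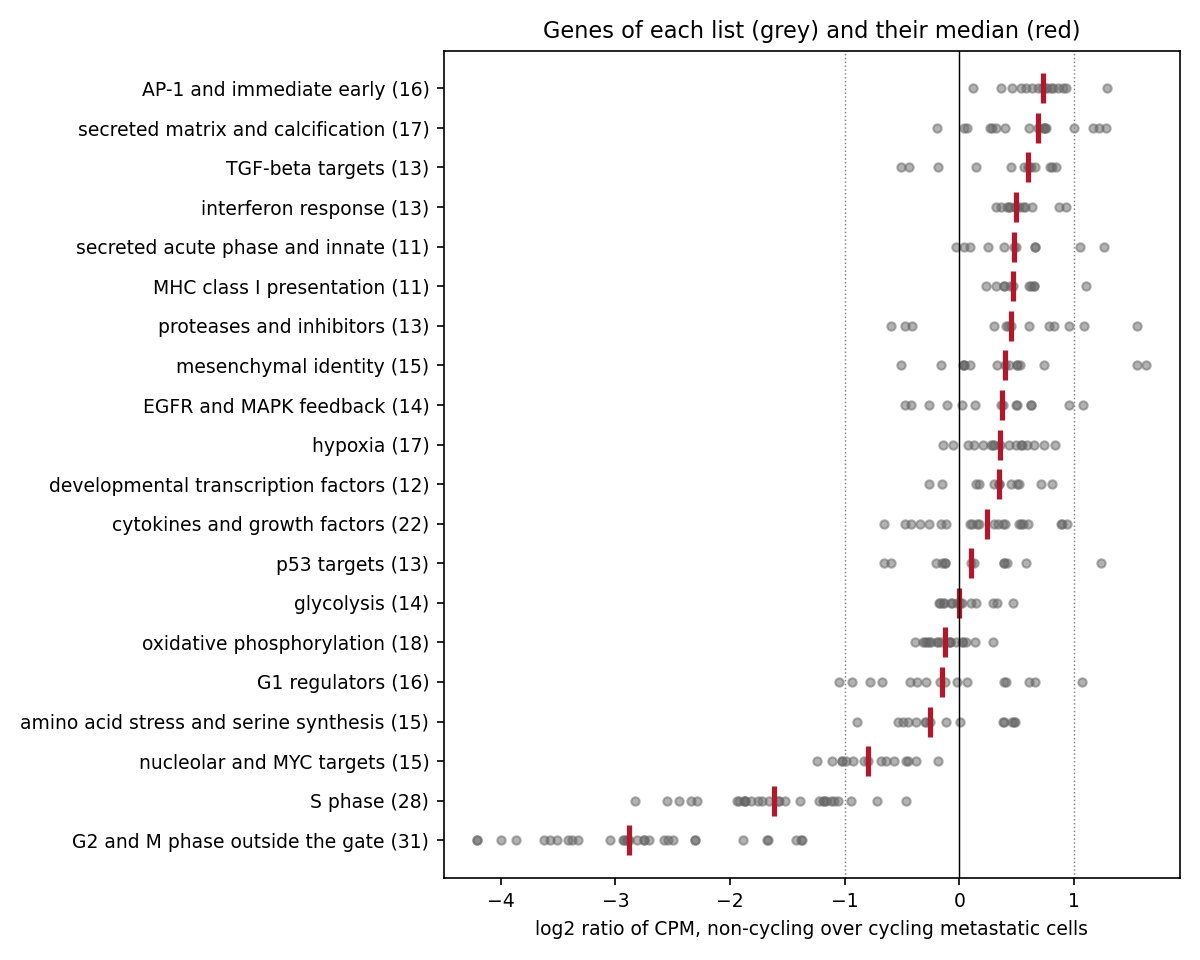
Log2 ratio of CPM, non-cycling over cycling metastatic cells (horizontal axis), for each gene (grey point) of 20 gene lists with the list median as a red bar, the number past the filter in brackets and dotted lines at 2-fold. The 31 G2 and M phase genes and 28 S phase genes all lie below 0, the 15 nucleolar and MYC target genes too, and the 16 AP-1 and immediate early, 13 interferon and 11 MHC class I genes all lie above 0.

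Secreted matrix genes were mostly higher, and they include the 2 most abundant marker genes. Of 24 genes on the list 17 passed the filter, 16 higher and 1 lower, 4 of them over 2-fold higher, with a median log2 ratio of 0.68. In the matched depth range 13 of the 17 were higher, with a median of 0.41. Together Spp1 and Mgp took 3.10% of all UMIs of the members and 1.35% of those of cycling metastatic cells. The log2 ratio was 1.17 (1.16 to 1.18) for Spp1 and 1.22 (1.21 to 1.24) for Mgp, and in the matched depth range 0.69 and 0.71. Cyr61, a matricellular target of YAP, stood at 877 against 438 CPM, and Fn1, fibronectin, at 666 against 398 CPM. Ecm1 and Col18a1 were closer, with log2 ratios of 0.28 and 0.04. Ibsp, bone sialoprotein, missed the filter, since it was seen in 9.91% of members and 5.14% of cycling metastatic cells. It stood at 35.4 against 6.39 CPM (142 against 187 UMIs) and was chosen after its values were seen. Lists overlap in some genes, such as Fn1, which also stands on the mesenchymal list.

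Acute phase and iron-binding genes of the secreted list were higher as well. Of 14 genes 11 passed the filter, 10 higher and 1 lower, with a median of 0.48 and of 0.24 in the matched depth range. Cp, ceruloplasmin, the copper-carrying ferroxidase of plasma, stood at 655 CPM in the members, 274 in cycling metastatic cells and 66.5 in other lung cells, a log2 ratio to cycling cells of 1.26 (1.19 to 1.32) and of 0.60 in the matched depth range. Lcn2 and Ptx3 both had log2 ratios of 0.66, and 0.24 and 0.27 in the matched depth range. Hp, haptoglobin, stood at 52.2 against 25.1 CPM, but 67.3% of its UMIs at 5000 UMIs per cell came from 1 member, and its log2 ratio of 1.05 was −0.68 without its highest cell. Among proteases and their inhibitors 10 of 13 were higher and 3 lower, with a median of 0.45 and of 0.19 in the matched depth range. Serpine2, an inhibitor of thrombin and urokinase, stood at 296 against 139 CPM, a log2 ratio of 1.09 (0.99 to 1.18), and Timp1, an inhibitor of matrix metalloproteinases, at 211 against 282 CPM. Of 22 cytokine and growth factor genes 15 were higher and 7 lower, none over 2-fold, with a median of 0.24. Tgfb1 stood at 65.4 against 43.2 CPM and Mif, the most abundant of the list, at 1732 against 2082 CPM.

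Metabolic lists had medians nearer 0. Of 14 glycolysis genes 7 were higher and 7 lower, with a median of −0.01, and of 18 oxidative phosphorylation genes 5 were higher and 13 lower, with a median of −0.13. Gapdh stood at 2419 against 2672 CPM and Ldha at 1056 against 1162 CPM. Of 15 genes of amino acid stress and serine synthesis 6 were higher and 9 lower, with Phgdh, the first enzyme of serine synthesis, at 259 against 363 CPM. Of 17 hypoxia genes 15 were higher, with a median of 0.35 and of 0.26 in the matched depth range, and Ddit4, an inhibitor of mTORC1, stood at 128 against 76.8 CPM. TGF-beta targets had 10 of 13 higher, with a median of 0.60 and of 0.14 in the matched depth range. Id3, an inhibitor of bHLH factors, stood at 793 against 454 CPM and Smad7, an inhibitor of the pathway, at 109 against 70.2 CPM. Of 12 developmental transcription factors 10 were higher, with a median of 0.35 and of 0.18 in the matched depth range, among them Sox4 at 529 against 322 CPM. Of 15 mesenchymal genes 13 were higher, with a median of 0.40. In the matched depth range 9 of the 15 were higher and 6 lower, with a median of 0.18.

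By the rule for named genes, the highest ratios outside the gate included those of 1500015O10Rik, Trf, Lbp, Eln, Orm2, F830016B08Rik, Ccdc80, Postn, Ncmap, Thrsp and Bhlhe41. 1500015O10Rik (chr1:43730602-43742578), also called Ecrg4 and encoding a secreted peptide precursor, stood at 287 CPM in the members, 56.9 in cycling metastatic cells and 17.4 in other lung cells. Its log2 ratio was 2.33 (2.22 to 2.44), and 2.20 in the matched depth range. After thinning to 3000 UMIs it was seen in 20.3% of members, 6.998% of cycling metastatic cells and 0% of lymphocytes, against 35.6%, 27.3% and 1.54% before thinning. Trf (chr9:103204001-103230444), the iron carrier transferrin, stood at 1884 CPM in the members, 528 in cycling metastatic cells and 342 in other lung cells. Its log2 ratio was 1.83 (1.79 to 1.87), and 1.01 in the matched depth range.

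Some of these genes rested on few cells. For Eln, elastin, 1 member held 45.0% of the UMIs, and the log2 ratio of 1.74 was 0.88 without it. For Orm2, an acute phase glycoprotein, 1 member held 39.6%, and the ratio of 1.70 was 0.97 without it. Trf kept a ratio of 1.60 without the member that held 15.2% of its UMIs. Lbp, which binds bacterial lipopolysaccharide, stood at 40.2 against 11.7 CPM, a ratio of 1.77 (1.49 to 2.05) and of 1.67 without its highest cell. Postn, the matrix protein periostin, stood at 58.4 against 18.9 CPM, with ratios of 1.63 and 1.37, and Ccdc80, a matrix-binding protein gene, at 63.1 against 20.3 CPM, with ratios of 1.64 and 1.51. Thrsp, a regulator of lipid synthesis, stood at 1.56 and at 0.74 in the matched depth range.

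**Figure D4:**
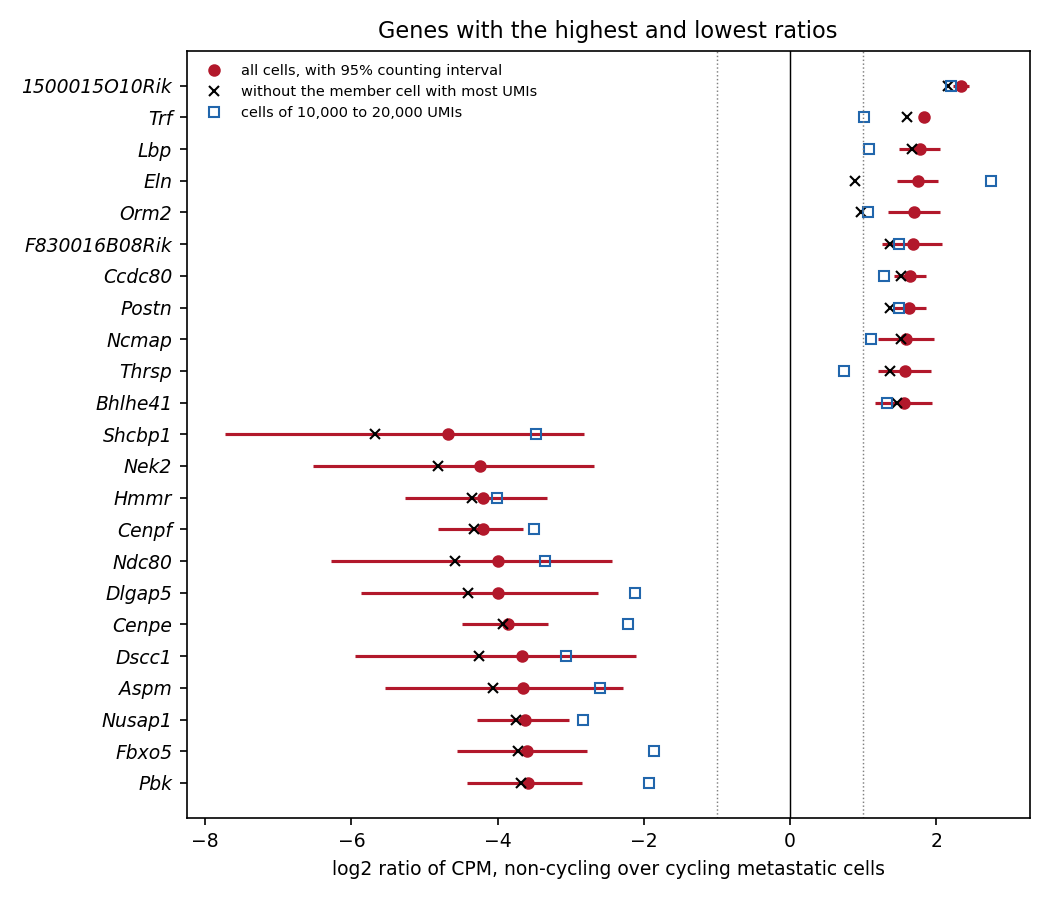
Log2 ratio of CPM, non-cycling over cycling metastatic cells (horizontal axis), for 11 of the 12 highest and the 12 lowest genes outside the gate, with 95% counting intervals as lines, crosses for the value without the member cell that holds most of the gene's UMIs, open squares for cells of 10,000 to 20,000 UMIs (no square for Nek2) and dotted lines at 2-fold. Eln and Orm2 drop below 2-fold without 1 cell, while 1500015O10Rik stays at 2.16.

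Along the cycle gene sum most of the levels read here differed gradually, with no step at the limit of 2 p10k. The median Spp1 level was 78.1 p10k in the 73 members under 1 p10k of the cycle genes and 97.8 in the 149 members from 1 to 2 p10k. It was 82.8 in the 292 cycling metastatic cells from 2 to 4 p10k, 50.9 in the 327 from 4 to 10 p10k, 20.7 in the 234 from 10 to 20 p10k and 21.1 in the 333 at 20 p10k or more. Mgp followed the same course, from 85.9 and 78.2 p10k in the members to 74.6, 39.87, 16.7 and 17.2. Lcn2 was highest outside the members, at 8.36 and 10.2 p10k in the members and 11.98, 9.80, 2.78 and 2.46 in the cycling bins. The immediate early list summed to medians of 96.3 and 87.4 p10k in the members and 74.4, 57.6, 47.7 and 43.1 in the cycling bins. The nucleolar and MYC list went the other way, from 34.7 and 38.4 p10k to 39.6, 47.9, 66.4 and 61.9. The MHC class I list had medians of 37.1 and 37.9 p10k in the members and 29.7, 30.0, 23.1 and 24.3 in the cycling bins. Its level thus dropped at the limit and again from 10 p10k. S phase genes peaked at 21.6 p10k in the bin from 10 to 20 p10k, and G2 and M phase genes at 62.5 p10k in the last. Median depth moved along with the bins, from 14010 and 17185 UMIs in the members to 18051, 19119, 27026 and 30349 in the cycling bins.

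**Figure D5:**
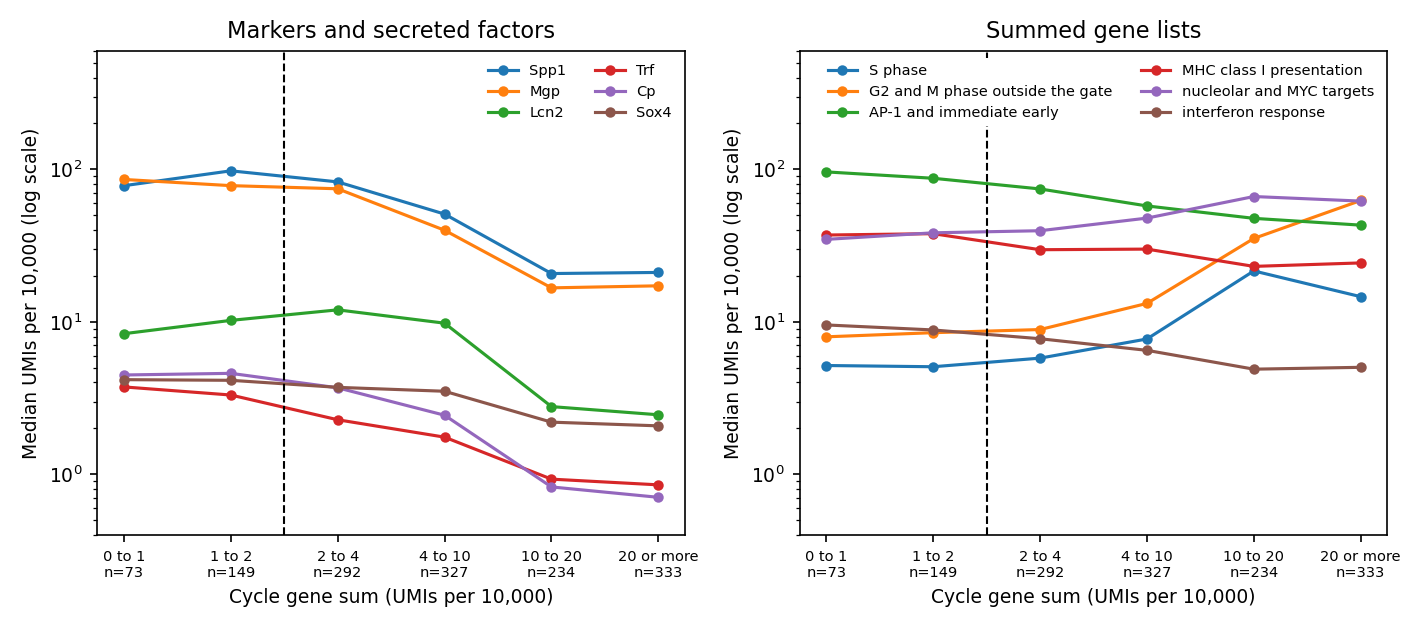
Median level in UMIs per 10,000 (vertical axis, log scale) over 6 bins of the cycle gene sum (horizontal axis, with the number of metastatic cells in each) for 6 genes (left) and 6 summed lists (right). The dashed line is the limit of 2 that separates members on the left from cycling metastatic cells on the right, and Spp1 and Mgp are at 74 p10k or more in the first 3 bins and near 20 in the last 2.

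The spread among the members was read gene by gene. After thinning to 5000 UMIs per cell, which all 222 members reached, 3113 genes had a mean of at least 0.2 UMIs, and the median ratio of variance to mean over these genes was 1.08, where counting alone gives 1. Mgp had a ratio of 109, Spp1 104, Trf 70.2 and Lcn2 35.1. These did not rest on 1 cell, since without the member holding most of the gene's UMIs the ratios were 95.7, 93.0, 43.3 and 28.3. Fth1, the iron-storing ferritin heavy chain, stood at 51.0 and 47.7, the nuclear RNA Malat1 at 48.1 and 45.3, and S100a6, a calcium-binding protein gene, at 33.4 and 29.7. The others of the 15 most variable genes did rest on 1 cell. They were Cfd, Sftpc, Saa1, Saa2, Fabp5, Hp, Lpl and Sftpa1, with ratios of 22.0 to 228 that were 0.93 to 1.70 without it. The 1 cell held 99.1% of the Cfd UMIs, an adipocyte gene, and 95.6% of those of Saa1, an acute phase gene. The surfactant gene Sftpc, a marker of alveolar type 2 cells, had 34.5% of its UMIs in 1 member and a median of 3 UMIs over the members.

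Some of the variable genes were high in the same cells and others less so. Over the 222 members at 5000 UMIs, Spearman's rho was 0.67 between Spp1 and Mgp, 0.52 between Spp1 and Trf, 0.46 between Lcn2 and Trf and 0.43 between Lcn2 and Cp. It was 0.21 between Mgp and Lcn2 and 0.10 between Mgp and Cp. MHC class I and interferon sums had a rho of 0.59, and Lcn2 and the MHC class I sum of 0.40. The nucleolar and MYC sum had a rho of −0.33 with Cp. In the 1186 cycling metastatic cells the same pairs stood at 0.68, 0.46, 0.40, 0.48, 0.46, 0.34, 0.50, 0.36 and −0.43. Pairs with Fth1, Malat1 and S100a6 were not computed. Total UMIs of the cell had rhos of 0.01 with Spp1, 0.13 with Mgp and 0.38 with the nucleolar and MYC sum in the members. These cells share 1 library and 1 mouse, and the values are a description.

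Against other lung cells the members were compared to describe what set them apart from the rest of the lung. Of 8048 genes tested, 2086 (25.9%) differed by over 2-fold, 725 higher (9.01%) and 1361 lower (16.9%) in the members, with a median log2 ratio over all genes of 0.04. The cells were chosen to differ, so this too is a description. The highest outside the gate was Col11a1, a fibrillar collagen gene, at 74.4 CPM in the members, 43.9 in cycling metastatic cells and 3.99 in other lung cells, a log2 ratio to other lung cells of 4.22 (3.83 to 4.62). Shox2, a homeobox factor of limb development, stood at 44.9, 35.3 and 2.94 CPM in the same order. Ank, which exports pyrophosphate, stood at 515, 294 and 44.2 CPM, Sphk1, sphingosine kinase 1, at 237, 137 and 21.9 CPM, and Notum, a secreted enzyme that inactivates Wnt proteins, at 48.4, 36.3 and 4.76 CPM. Pak3, a kinase gene, stood at 39.4, 33.5 and 2.76 CPM, Plppr3 at 71.9, 36.9 and 6.70, and the cytokine gene Il17b at 63.4, 62.8 and 5.11. The rest of the 12 highest were 1500015O10Rik, Ptx3, Spp1 and Lcn2, given above.

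Of the 12 lowest genes against other lung cells, all but Sult1a1 stood higher in macrophages than in other lung cells as a whole. Bcl2a1b, an antiapoptotic gene, stood at 6.99 CPM in the members and 407 in other lung cells, a log2 ratio of −5.86 (−6.46 to −5.33). Cd86, a costimulatory ligand, stood at 0.998 against 76.7 CPM, and Mmp14, a membrane metalloproteinase, at 0.749 against 66.0 CPM. Bcl2a1d, Gpr183 and Hk3 had 7, 2 and 2 UMIs in the members. Gpr34, Adap2, Hpse, Was, Itga9 and Sult1a1 had 1 UMI each in the members against 272 to 450 in other lung cells. Bcl2a1b and Bcl2a1d are near-identical copies, and reads may be split between them.

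The cycle gene lists were lower in the members than in other lung cells as well. Of 26 S phase genes 25 were lower (47.8% of all genes tested were lower) with a median log2 ratio of −1.01, and of 25 G2 and M phase genes 24 were lower with a median of −1.79. The cycle gene sum had a median of 2.17 p10k in other lung cells, 2.80 in macrophages, 3.03 in lymphocytes and 1.38 in the members. The gate held this sum under 2 p10k in the members and set no such limit on the other classes. These cycle gene values therefore describe the choice of cells. Feedback genes of EGFR and MAPK signaling were higher in 10 of 12, against 52.2% of all genes tested, with a median of 1.38. Developmental transcription factors were higher in 9 of 13, with a median of 1.60, among them Foxc1 at 38.4 against 4.05 CPM and Tfap2a at 34.4 against 4.17 CPM.

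Chromosome medians did not separate the members from the cycling metastatic cells, since on every chromosome the median log2 ratio lay between −0.06 and 0.03. Against other lung cells they ranged more widely, and the members and the cycling metastatic cells had the same sign on the 4 chromosomes farthest from 0. The median was 0.52 on chromosome 3 (414 genes), 0.41 on chromosome 12, −0.43 on chromosome 19 and −0.31 on chromosome 7 for the members. It was 0.61, 0.57, −0.29 and −0.16 for cycling metastatic cells against the same other lung cells, which both comparisons share. The signs were opposite on chromosomes 4, 5 and 13. There the medians were −0.12, −0.09 and −0.10 for the members and 0.05, 0.02 and 0.10 for cycling metastatic cells.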

How the data were processed

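Single-cell libraries were prepared by the authors from whole lungs of 1 mouse at week 1 and 1 mouse at week 3. Per the labels and methods, reads were processed with Cell Ranger 2.0.2 on mm10 with PYMT added, and Seurat is named for later steps. The deposited values are raw counts of UMIs per gene and cell without normalization, and whether they precede the aggregation of the libraries is not stated. The files hold 3121 high-burden barcodes (52723173 UMIs) and 2668 low-burden barcodes (14041471 UMIs), of which the study's limits on genes and mitochondrial share kept 3033 and 2473. The high-burden number is the one the study states, the low-burden number is slightly above the one it states, and the total kept is slightly above the study's. Groups came from the sample titles.

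The members, classes and gene lists were chosen with earlier results of these data known. Cell classes were rebuilt from the counts with fixed limits, no deposited annotation was used, and differences from the study may come from these names. Doublets were kept. UMIs were summed per class and scaled to 1000000 per class (CPM), with log2 ratios for genes of at least 200 UMIs over both groups and detection in at least 10% of cells of either. Counts carry exact Poisson, ratios exact conditional binomial and shares exact (Clopper-Pearson) 95% intervals. No p-value was computed. Named genes were the markers and gate genes, up to 10 genes per list with the most UMIs, the 12 highest and 12 lowest ratios outside the gate in each comparison, and the 15 most variable genes, of which 1 is not reported here. Of 27999 listed genes, 27645 took coordinates from GENCODE M21 on GRCm38 through their gene identifiers, and which annotation release the authors counted on is not given in the sources used here. Promoters came from RefSeq tables on GRCm38.p6, and 6838 of the 8827 genes tested against cycling cells had one. Alternatives covered gate limits, scaling, filters, thinning, doublet and leukocyte removal. The intervals and the simulated data on which they were checked cover counting error only. Python 3.11.15, numpy 2.4.6, scipy 1.17.1, pandas 2.3.3, scanpy 1.11.5 and matplotlib 3.10.9 were used.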

Additional observations from a re-analysis of the deposited data

How the results depend on the processing

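The number of members depended on where the gate was set. It was 222 as described, 73 with the cycle genes under 1 p10k, 514 with them under 4 p10k, 145 with C1q genes under 3 p10k and 122 without Cdkn2a in the gate. It was within 1.5 times of 222 with 12 p10k of the metastatic genes (165), after thinning (177) and without cells with a Ptprc UMI (194). Removing doublet calls left 222, which could not differ because the caller marked 0 of the members. Genes over 2-fold against cycling cells numbered 429 of 8827 tested (80 higher and 349 lower). They numbered 2051 of 14572 with no filter (1306 higher, 745 lower), 161 of 3971 at 1000 UMIs or more and 283 of 7659 with 12 p10k of the metastatic genes. They numbered 139 of 4144 after thinning to 5000 UMIs, 55 in cells of 10000 to 20000 UMIs and 740 with members under 1 p10k, the last 2 chosen after seeing the data. Of these, 161, 267, 120, 53 and 373 were among the 429 for the settings after the first. Averaging over cells left 358 (11.5% of them higher, against 18.6% before). Against other lung cells the number was 2086 of 8048 tested, and 5429 with no filter, 697 at 1000 UMIs or more, 1309 after thinning and 1380 without cells with a Ptprc UMI. The number of genes tested changed with the setting. None of the highest, lowest and marker genes followed through these settings changed direction. Some genes of the lists did. Snai1 had a log2 ratio to cycling cells of 0.33, and of −0.05 in the matched depth range. Hp had 1.05, and −0.09 with members under 1 p10k. The 4 markers outside the gate stayed above other lung cells in every setting, and 10 to 15 of the 15 most variable genes remained. Cdkn2a, Sox9 and Twist1 did too, but they are gate genes and their direction describes the choice of cells. No paired analysis was possible because each group holds 1 library. Depth limits genes with few UMIs in the members, such as Shcbp1, Nek2, Ndc80 and Dscc1 with 2 or 3.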
